A study of Mus musculus with 99 samples.

Results

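SUZ12 ChIP-seq was performed in mouse embryonic stem cells (ESCs) lacking MTF2, and the 4 peak lists from these cells, of 99 samples in the series, are described here. They were chosen by antibody (SUZ12) and by the MTF2 knockout (MTF2KO) in the sample title. Every line carried ROSA26::creERT2, lacked RING1A and held a floxed RING1B gene, so that 4-hydroxytamoxifen (OHT, 0.5 µM for 72 h) deleted endogenous RING1B. The 4 samples were Parental cells given the ethanol vehicle (−OHT), Parental cells given OHT (+OHT, no RING1A/B), and OHT-treated derivatives that expressed FLAG-HA-tagged RING1B from a pCAG vector. One derivative expressed wild-type RING1B (RING1B WT) and the other the I53S mutant, which the study used as a catalytically inactive form without H2AK119ub1 deposition. MTF2 was removed from all of them with CRISPR guides, and the knockout lines were clones selected by western blot and sequencing. Each condition had 1 library, so no test between conditions was possible, and for RING1B WT and RING1B I53S the clone and the RING1B form cannot be told apart. H2AK119ub1 in the MTF2 KO lines was not analysed here. Intervals given below are 95% Wilson intervals for a share, or Newcombe intervals for a difference, which treat loci as independent and cover counting over loci only.

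PRC2 is the histone methyltransferase complex that deposits H3K27me3, and SUZ12 is a subunit that its core cannot do without. MTF2 is a Polycomb-like accessory subunit that binds CpG-rich DNA. Together with its relatives PHF1 and PHF19, it characterizes one form of PRC2. JARID2 and AEBP2 define the other form, and JARID2 can bind H2AK119ub1, the mark that RING1A/B deposit within PRC1. In ESCs both complexes sit on the CpG-rich promoters of silent developmental regulators. The comparison asked which loci held SUZ12 when MTF2 and H2AK119ub1 deposition were both missing.

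The DNA of some of these loci shows the kind of sequence that was compared. The windows below are the 300 bp with the most CpG dinucleotides within a RING1B-bound locus, leaving out windows that touch annotated untranslated regions. They are read 5′ to 3′ on the plus strand of the RefSeq GRCm38.p6 (mm10) genome, with each CpG in capitals. The first 3 come from loci with a SUZ12 peak in all 4 MTF2 KO lists, and were chosen because they had the highest scores of such gene loci outside chromosome 11 in OHT-treated Parental MTF2 KO cells.
Bmi1 (chr2:18677474-18677773): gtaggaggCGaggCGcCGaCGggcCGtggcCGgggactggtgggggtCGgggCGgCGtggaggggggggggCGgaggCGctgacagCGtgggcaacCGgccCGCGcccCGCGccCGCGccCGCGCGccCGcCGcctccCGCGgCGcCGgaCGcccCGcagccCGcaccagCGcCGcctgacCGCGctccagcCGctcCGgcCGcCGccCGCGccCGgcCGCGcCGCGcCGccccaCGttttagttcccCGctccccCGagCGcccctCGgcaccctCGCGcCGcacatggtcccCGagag
Barx2 (chr9:31914931-31915230): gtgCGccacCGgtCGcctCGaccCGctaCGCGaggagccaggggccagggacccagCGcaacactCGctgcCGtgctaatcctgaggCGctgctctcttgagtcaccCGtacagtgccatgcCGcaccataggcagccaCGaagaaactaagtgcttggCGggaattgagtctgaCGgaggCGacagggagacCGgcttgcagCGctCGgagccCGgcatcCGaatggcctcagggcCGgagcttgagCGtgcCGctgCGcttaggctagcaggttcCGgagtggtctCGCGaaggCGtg
Ephb1 (chr9:102353208-102353507): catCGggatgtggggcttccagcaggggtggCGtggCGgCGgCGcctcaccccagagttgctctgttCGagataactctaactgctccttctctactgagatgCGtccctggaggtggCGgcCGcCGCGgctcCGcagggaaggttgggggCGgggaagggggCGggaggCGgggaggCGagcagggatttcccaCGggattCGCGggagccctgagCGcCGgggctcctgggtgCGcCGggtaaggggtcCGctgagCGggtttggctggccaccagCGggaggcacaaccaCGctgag

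The next windows come from the loci of Foxa2 and Isl2, which held strong SUZ12 peaks in both lists of cells with active RING1B and none in either list without it, and from Prdm12, the locus the study displayed.
Foxa2 (chr2:148044456-148044755): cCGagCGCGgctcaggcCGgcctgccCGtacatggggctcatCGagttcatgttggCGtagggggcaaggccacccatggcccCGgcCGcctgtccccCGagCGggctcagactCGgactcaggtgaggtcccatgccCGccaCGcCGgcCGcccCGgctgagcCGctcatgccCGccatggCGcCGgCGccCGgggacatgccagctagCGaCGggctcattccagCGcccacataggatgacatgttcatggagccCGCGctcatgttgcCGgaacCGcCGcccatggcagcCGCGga
Isl2 (chr9:55542107-55542406): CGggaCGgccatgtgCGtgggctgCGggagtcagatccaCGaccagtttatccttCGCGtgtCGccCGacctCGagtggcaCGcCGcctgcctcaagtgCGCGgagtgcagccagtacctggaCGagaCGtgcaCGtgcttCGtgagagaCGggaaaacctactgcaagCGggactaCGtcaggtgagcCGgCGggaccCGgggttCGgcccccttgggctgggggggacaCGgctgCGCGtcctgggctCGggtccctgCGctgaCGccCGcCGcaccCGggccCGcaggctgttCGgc
Prdm12 (chr2:31636153-31636452): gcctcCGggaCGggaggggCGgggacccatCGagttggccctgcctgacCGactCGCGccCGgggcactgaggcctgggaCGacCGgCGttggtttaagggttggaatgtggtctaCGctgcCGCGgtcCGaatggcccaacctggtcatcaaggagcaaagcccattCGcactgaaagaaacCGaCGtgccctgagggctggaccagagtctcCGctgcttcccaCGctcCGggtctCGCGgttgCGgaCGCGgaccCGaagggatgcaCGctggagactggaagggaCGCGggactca

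The windows of Bmi1 and Ephb1 lay in introns, that of Foxa2 lay in exons over its 300 bp, and that of Isl2 covered 254 bp of exon. The Barx2 window was upstream of the gene, 1618 bp from the nearest annotated start, and the Prdm12 window was 3735 bp from one. They held 56 (Bmi1), 30 (Barx2), 27 (Ephb1), 33 (Foxa2), 36 (Isl2) and 30 (Prdm12) CpGs. The kept and lost windows therefore overlapped in CpG number. For all loci outside chromosome 11 the richest window was taken with untranslated regions included, unlike the printed windows. It had a median of 36 CpGs at the 230 loci that kept SUZ12 in Parental cells and 34 at the 1893 that lost it.

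The MTF2 KO lists fell into long ones, from cells with active RING1B, and short ones, from cells without it. Parental −OHT cells had 4170 SUZ12 peaks covering 9.14 Mb and RING1B WT +OHT cells had 4634 covering 8.94 Mb. The number was 1801 peaks over 1.76 Mb in Parental +OHT cells and 706 over 0.703 Mb in RING1B I53S +OHT cells. The peaks were also narrower, with median widths of 1500.5 bp (Parental −OHT), 1341.5 bp (RING1B WT), 786 bp (Parental +OHT) and 695 bp (RING1B I53S). Peaks of at least 4 kb numbered 459 and 391 in the long lists and 13 and 17 in the short ones. The read depth behind a peak list is not part of it, so a shorter list and a less deeply sequenced library cannot be told apart. Every list had been called against the same input, from E14 ESCs, which are another line.

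The position of the remaining peaks was uneven along the genome. Chromosome 11, which holds 4.48% of the reference bases and 7.47% of protein-coding genes, held 67.2% of the peaks of Parental +OHT cells (1211 of 1801) and 62.7% of those of RING1B I53S cells (443 of 706). It held 24.2% of the peaks in Parental −OHT cells and 29.4% in RING1B WT cells, against 11.7 to 15.5% in the 4 SUZ12 lists from MTF2-proficient cells of the same conditions. A high share on chromosome 11 was also present in other lists of the series, with 59.6% for H3K27me3 in Parental MTF2 KO +OHT cells and 82.6% for RING1B in MTF2-proficient Parental +OHT cells, from which RING1B had been deleted. Few chromosome 11 peaks of SUZ12 overlapped a peak of the last list. The numbers were 35 of 1211 (2.89%) in Parental +OHT cells and 14 of 443 (3.16%) in RING1B I53S cells. Why all these lists had a high share on chromosome 11 was not tested. The part of the shared E14 input was not tested either. The input libraries of the MTF2 KO lines, called in the same way, gave only 9 to 19 peaks each. Results are therefore given for chromosome 11 and for the other chromosomes separately.

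SUZ12 occupancy was scored at RING1B target loci, the 3941 RING1B peaks of MTF2-proficient RING1B WT +OHT cells, by overlap of at least 1 bp. Outside chromosome 11 (3233 loci), 65.9% of loci had a SUZ12 peak in Parental MTF2 KO −OHT cells and 68.6% in RING1B WT cells. The share was 7.89% in Parental +OHT cells and 1.24% in RING1B I53S cells. The difference was −58.0 percentage points (−59.8 to −56.0) between +OHT and −OHT Parental cells and −67.4 points (−69.0 to −65.7) between RING1B I53S and RING1B WT. Parental +OHT cells, which had no RING1B, had SUZ12 peaks at 6.65 points (5.66 to 7.68) more loci than cells with RING1B I53S. H3K27me3 peaks of the same MTF2 KO lines had the other order. They were at 27 of these loci (0.835%) in Parental +OHT cells and at 50 (1.55%) in RING1B I53S cells. The intervals of the SUZ12 differences describe the 4 lists and contain no variation between cultures.

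With MTF2 present, the same treatments left most loci occupied. The shares outside chromosome 11 in the MTF2-proficient lines were 97.1% (Parental −OHT), 84.8% (Parental +OHT), 96.2% (RING1B WT) and 58.8% (RING1B I53S). In MTF2-proficient cells the OHT difference in Parental cells was −12.2 points (−13.6 to −10.9), and that between RING1B I53S and RING1B WT was −37.4 points (−39.2 to −35.5). Neither interval reached that of the same comparison in MTF2 KO cells, but a share of called peaks does not measure the size of a fall. Outside chromosome 11 the median SUZ12 peak score in Parental −OHT cells was 42.7 with and 16.0 without MTF2, nearer the lowest score of 10.0. At 2734 loci with SUZ12 in both MTF2-proficient Parental lists, the median score was 238.9 without and 35.0 with OHT. At 1893 such loci it was 147.2 in RING1B WT and 20.9 in RING1B I53S cells. On chromosome 11 (708 loci) the MTF2 KO shares were 46.5% (Parental −OHT), 34.9% (Parental +OHT), 52.5% (RING1B WT) and 9.18% (RING1B I53S). OHT-treated Parental cells thus had SUZ12 at a larger share of loci there than elsewhere. The loci differed from the start, as 57.8% of those on chromosome 11 had SUZ12 in MTF2-proficient Parental −OHT cells. Not all +OHT peaks there were kept ones. In MTF2 KO cells 26 loci had SUZ12 in Parental +OHT cells alone, and another 22 in Parental +OHT and RING1B WT cells only.

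**Figure D1:**
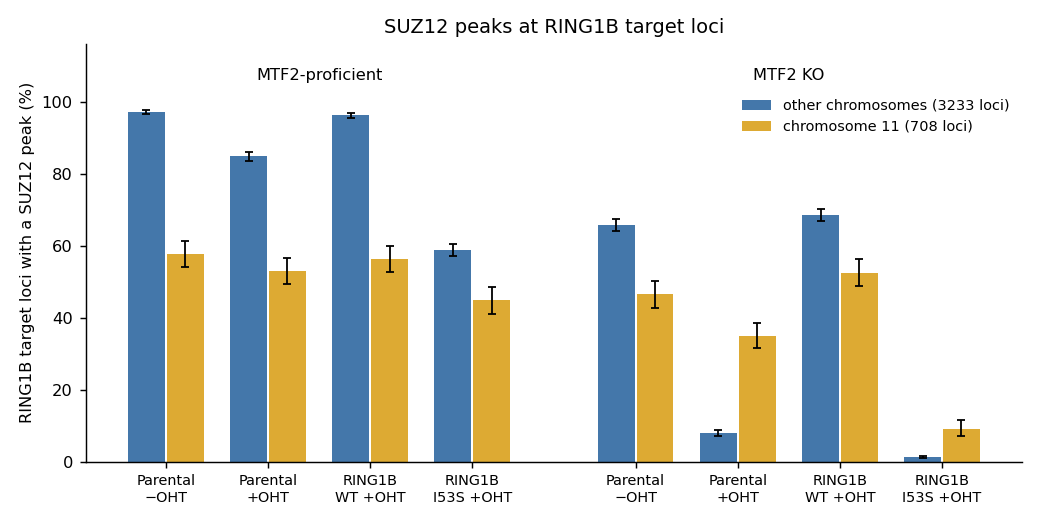
Share of RING1B target loci with a SUZ12 peak (percent) in the 4 MTF2-proficient and the 4 MTF2 KO lists, outside chromosome 11 (blue) and on it (yellow), with 95% Wilson intervals over loci and 1 library per bar. In MTF2 KO cells the blue bars fall from 65.9% to 7.89% with OHT in Parental cells and stand at 1.24% with RING1B I53S, against 68.6% with RING1B WT.

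Chromosome 6 was the other exception in OHT-treated Parental MTF2 KO cells, with SUZ12 at 24.4% of its 205 loci. The peaks lay in 2 pieces of the chromosome. Up to 40 Mb there were 57 peaks and 38% of 50 loci were occupied, and beyond 80 Mb there were 115 peaks and 28.6% of 98 loci. Between 40 and 80 Mb, the piece that holds the Hoxa cluster, there were 4 peaks and 5.26% of 57 loci. Before OHT the shares were 72.0% up to 40 Mb, 77.6% beyond 80 Mb and 84.2% in between. Without chromosomes 6 and 11 the shares over 3028 loci were 65.0% (Parental −OHT), 6.77% (Parental +OHT), 68.1% (RING1B WT) and 1.12% (RING1B I53S). Why these stretches differed was not tested. In RING1B I53S cells chromosome 9 had the highest share outside chromosome 11, with 10 of 199 loci (5.03%) against a median of 0.74% over these chromosomes. Of the 10, 4 had a peak in the input libraries, and the others included the loci of Barx2, Skor1, Foxb1 and Ephb1.

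**Figure D2:**
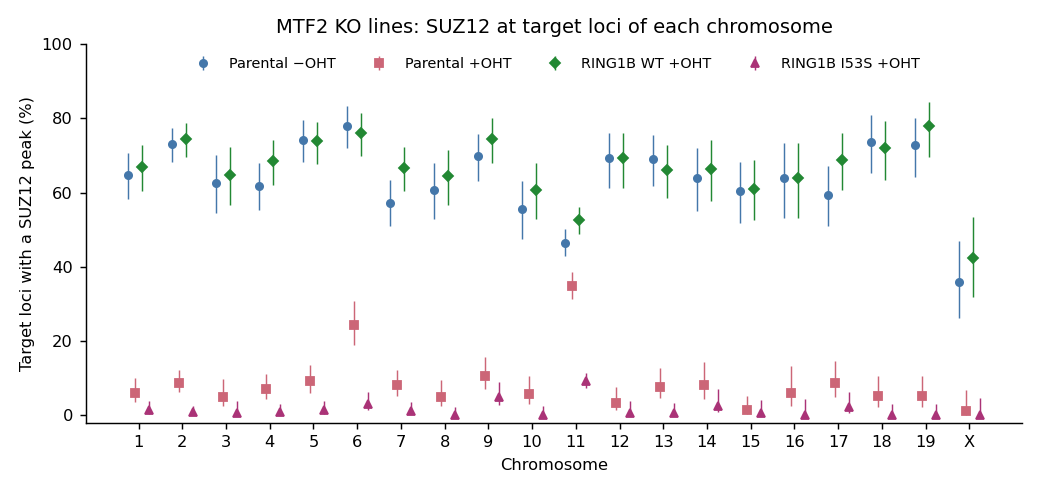
Share of RING1B target loci with a SUZ12 peak (percent) on each chromosome in the 4 MTF2 KO lists; lines are 95% Wilson intervals over loci. The Parental +OHT squares stand apart on chromosomes 6 (24.4%) and 11 (34.9%), and the RING1B I53S triangles on chromosomes 11 (9.18%) and 9 (5.03%).

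Locus by locus, the lists of cells with active RING1B resembled each other. Of the 3233 loci outside chromosome 11, 1708 had SUZ12 in Parental −OHT and RING1B WT cells and in neither of the other lists. A further 199 had it in those lists and in Parental +OHT cells, and 813 had no peak in any MTF2 KO list. Peaks in all 4 lists were found at 27 loci, 21 of which had no peak in the input libraries. On chromosome 11, 47 of 708 loci had SUZ12 in all 4 lists, 44 of them without an input peak.

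Counting peaks in place of loci, 9.11% of the Parental −OHT peaks outside chromosome 11 overlapped a peak of +OHT cells, against 33.9% on chromosome 11. From RING1B WT to RING1B I53S the shares were 2.99% and 12.8%. The kept peaks tended to be wide and strong ones. Outside chromosome 11, 24.1% of Parental −OHT peaks of at least 4 kb were kept (20.0 to 28.8), 10.8% of those of 2 to 4 kb, 6.41% of those of 1 to 2 kb, 4.54% of those of 0.5 to 1 kb and 5.70% of those under 0.5 kb. A wide peak has more bases at which an overlap can fall, and per Mb of peak the number kept went the other way, from 131 per Mb under 0.5 kb to 33.2 per Mb at 4 kb or more. From RING1B WT to RING1B I53S no steady increase with width was seen, with 7.80% kept under 0.5 kb, 1.99% at 2 to 4 kb and 7.49% at 4 kb or more.

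**Figure D3:**
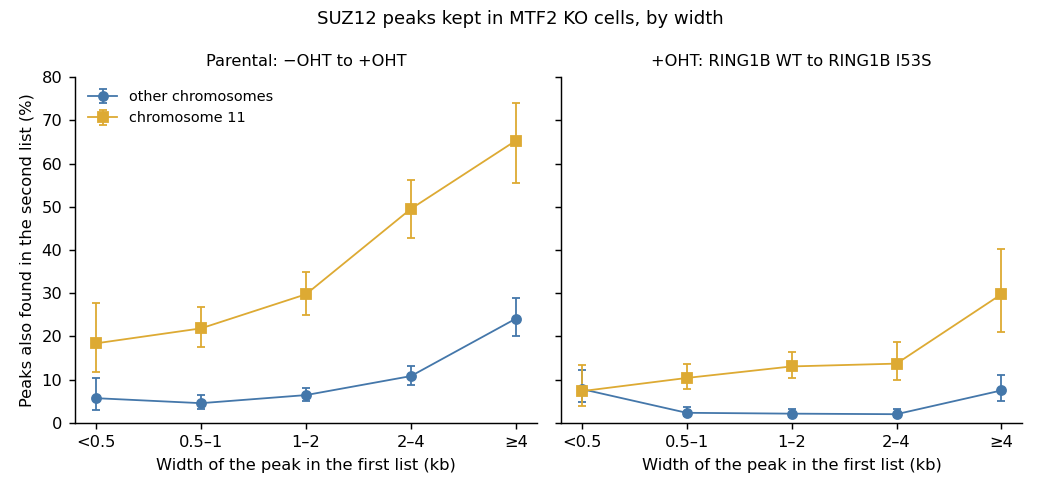
Share of SUZ12 peaks of the first list that overlapped a peak of the second (percent), by width of the first peak in kb, outside chromosome 11 (blue) and on it (yellow), with 95% Wilson intervals. In Parental cells it reaches 24.1% at 4 kb or more outside chromosome 11 and 65.3% on it; in the RING1B WT to I53S comparison the blue points stay between 1.99% and 7.80%.

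The same SUZ12 peaks were sorted by peak score, the −log10 p given by the peak caller. By quartile of the −OHT score, from lowest to highest, 4.30, 4.94, 7.34 and 19.9% of Parental peaks outside chromosome 11 were kept. Among peaks above the median score, 16.6% of peaks of at least 2 kb (14.4 to 19.0) and 8.59% of narrower ones (6.59 to 11.1) were kept. Below the median score the shares were 5.91% and 4.45%, with overlapping intervals. Peaks within 2.5 kb of an annotated start were kept more often than others (10.3 against 5.02%), and peaks at RING1B target loci more often than those outside (11.2 against 4.98%). The share also rose with CpG observed over expected, from 5.29% below 0.4 to 15.1% at 0.8 or more.

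Where SUZ12 was kept, the peak that remained was a small piece of the first. At the 230 target loci outside chromosome 11 with SUZ12 in both Parental lists and no input peak, the median width was 3071.5 bp without and 953.5 bp with OHT, and 218 of the 230 peaks were narrower. The median score was 40.7 without and 12.3 with OHT, close to the lowest score in the lists of 10.0, and it was lower at 215 loci. At the 29 such loci shared by RING1B WT and RING1B I53S cells the median width was 4906 bp in the first and 822 bp in the second, and the median score 71.5 and 13.1. Scores grow with read depth and are not a measure of SUZ12 amount between libraries.

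Kept, lost and unoccupied loci were then compared in the other lists of the series. The loci are themselves RING1B peaks and every list was scored on them by an overlap of at least 1 bp, so a wider locus has more bases at which any peak can fall, and the values are given as a description. RING1B peaks in MTF2-proficient RING1B WT cells had a median width of 2314 bp at the 230 kept loci, 1564 bp at the 1893 lost loci and 877 bp at the 1085 loci with SUZ12 in neither Parental MTF2 KO list. Their median RING1B scores were 89.3, 36.1 and 17.1. In OHT-treated Parental cells with MTF2, JARID2 peaks were present at 81.3% of the kept loci, 37.98% of the lost and 9.95% of the unoccupied ones. EPOP, another accessory subunit of the MTF2-containing form of PRC2, had peaks at 88.3, 56.2 and 28.6%. For MTF2 itself the shares were 97.4, 91.9 and 74.7%, and for AEBP2 in −OHT cells 70.0, 43.1 and 1.57%.

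H3K27me3 in the MTF2 KO cells followed the same order of loci at a lower level. In Parental −OHT cells it had a peak at 66.5% of the kept, 44.8% of the lost and 5.44% of the unoccupied loci. In Parental +OHT cells these shares were 8.26% (19 of 230), 0.317% (6 of 1893) and 0 of 1085. Of the loci that kept SUZ12, most thus had no called H3K27me3 peak. At the 29 loci kept from RING1B WT to RING1B I53S, 14 had an H3K27me3 peak in RING1B I53S cells, against 33 of the 2183 lost ones. H2AK119ub1 peaks were still called in MTF2-proficient Parental +OHT cells at 80% of the kept, 59.4% of the lost and 62.1% of the unoccupied loci, and a called peak says nothing of the amount of the mark. CpG observed over expected of the whole RING1B locus had medians of 0.68 at kept, 0.66 at lost and 0.77 at unoccupied loci. The share of peaks kept by CpG observed over expected, given above, concerns SUZ12 peaks of all positions, and the medians here only target loci.

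Bmi1, which codes for a PCGF subunit of PRC1, had the highest score in Parental +OHT cells of the gene loci outside chromosome 11 with a SUZ12 peak in all 4 lists and no input peak. These 21 loci were singled out after their values were seen. The Bmi1 scores were 133.9 in Parental −OHT, 38.3 in Parental +OHT, 163.1 in RING1B WT and 10.99 in RING1B I53S cells, with widths of 3079, 920, 5222 and 653 bp. Both lists without active RING1B had lower scores there than both with it. Barx2, a homeobox factor, had scores of 146.4, 29.6, 172.9 and 12.02 in the same order of lists. Ephb1, an ephrin receptor, had scores of 47.5, 24.2, 59.7 and 11.5.

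The other loci of this set included the homeobox genes Uncx, Hmx3, Nkx1-1 and Pax7, the forkhead gene Foxb1, the zinc-finger genes Egr3 and Klf14, the Notch ligand Dll4, the ligand Wnt2, the retinoic acid-degrading enzyme Cyp26b1 and the protocadherins Pcdh7 and Pcdh10. Skor1, Kcnk9, Nxph1 and Lrrc26 completed the named promoters together with Mroh2a. At the 20 loci with a gene, other than Mroh2a, the Parental +OHT and RING1B I53S scores were both below the Parental −OHT and RING1B WT scores and lay between 10.2 and 38.3. Pax7, a regulator of muscle and neural crest progenitors, had scores of 209.5 in Parental −OHT, 10.6 in Parental +OHT, 192.3 in RING1B WT and 18.9 in RING1B I53S cells.

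Mroh2a went against the pattern of the set. Its scores were 17.8 (Parental −OHT), 21.8 (Parental +OHT), 21.8 (RING1B WT) and 31.6 (RING1B I53S), and its peak widened from 5016 bp in Parental −OHT to 13110 bp in RING1B I53S cells. The locus was poor in CpG, with observed over expected of 0.19 against 0.50 to 0.99 at the other genes. It lies in chr1:88200001-88300000, a 100-kb window with 16, 18, 17 and 15 peaks in the 4 lists, and these numbers were alike in the lists with and without active RING1B. The remaining locus, chr9:123924670-123925680, had no gene start within 2.5 kb and scores of 33.1, 58.5, 48.2 and 48.5.

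**Figure D4:**
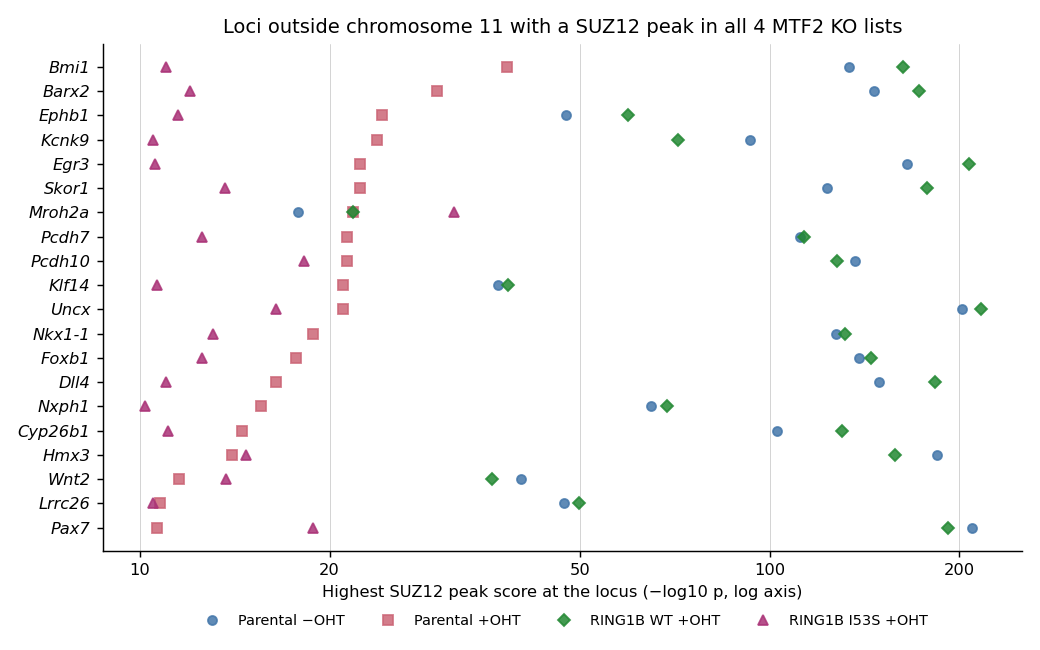
Highest SUZ12 peak score (−log10 p, log axis) in each of the 4 MTF2 KO lists at the 20 gene loci outside chromosome 11 that had a peak in all lists and none in input. Parental +OHT squares and RING1B I53S triangles lie between 10.2 and 38.3 and, except at Mroh2a, left of the Parental −OHT circles and RING1B WT diamonds.

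On chromosome 11 the set of 44 loci contained the neurogenic factor Neurod2, the LIM homeobox gene Lhx1, Tbx2, Dlx3, Grb10 and parts of the Hoxb cluster. Neurod2 had scores of 281.1 (Parental −OHT), 41.6 (Parental +OHT), 294.9 (RING1B WT) and 16.5 (RING1B I53S), and Lhx1 239.2, 27.4, 217.1 and 14.2. Grb10, an imprinted adaptor of growth factor receptors, had 84.9, 38.3, 95.5 and 21.4. These genes are among those with high scores in Parental −OHT cells. Over the 44 loci the score was lower with than without OHT in Parental cells at 40, and lower in RING1B I53S than in RING1B WT cells at 43. The exceptions in Parental cells included Rap1gap2 (10.1 without and 18.9 with OHT) and Ccdc85a (13.3 and 15.8), whose scores were near the lowest in the lists without OHT. Wscd1 was the exception between RING1B WT (13.2) and RING1B I53S (14.7).

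The ranking of promoters by score in the short lists was led by other sequences. Of the 10 genes with the highest SUZ12 score in Parental +OHT cells, those at chr9:3012236-3038047 (Gm10717, Gm10720, Gm10715, Gm10721 and Gm10719) and the genes Gm21738 and Gm10800 are predicted genes, and mt-Nd6 and mt-Nd2 are mitochondrial. The highest scores were 231.0 (Gm10717), 209.4 (Gm21738) and 154.5 (Gm10800). In RING1B I53S cells Gm10800 reached 967.7, mt-Nd6 402.4 and mt-Nd1 315.0. Coil, which codes for the Cajal body protein coilin, had 97.1 in Parental +OHT cells. Except for Sfi1 in RING1B I53S cells (88.3), all genes of both rankings had a peak of the MTF2 KO input libraries at their promoter, and these libraries carry no antibody enrichment.

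The strongest promoters that lost SUZ12 were ranked with 1 gene per peak, the gene whose start was nearest to the peak centre. By this rule the 10 with the highest score in Parental −OHT cells and no peak in +OHT cells were Otx1, Foxa2, Isl2, Hoxd11, Lhx4, Pax9, Six3, Zic1, Pitx1 and Barx1, of which only Otx1 is on chromosome 11. The promoters of Hoxb4 and Hoxb7, also on chromosome 11, lost SUZ12 with a higher score (319.2), but share their Parental −OHT peak with other Hoxb genes and were not ranked. Otx1, a head and forebrain homeobox factor, had a score of 238.2 over 13152 bp in Parental −OHT cells and 265.2 over 13079 bp in RING1B WT cells, with no peak in the other lists. Foxa2, an endoderm factor, had 202.5 (Parental −OHT) and 129.6 (RING1B WT). Isl2, a motor neuron factor, had 185.8 and 150.2. In RING1B I53S cells none of these 10 promoters had a peak either.

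With MTF2 the same promoters kept SUZ12 peaks in OHT-treated Parental cells. The scores there were 80.8 for Otx1, 72.3 for Foxa2 and 137.0 for Isl2, against 1074, 532.8 and 693.4 without OHT. The corresponding list for RING1B I53S, ranked by score in RING1B WT cells, included Hoxb2, Emx1, Otx1, Nr2e1, Nr5a1, Sox9, Six3, Hoxd11 and Lmx1b. Of these, Hoxb2, Emx1, Nr2e1, Nr5a1, Sox9 and Lmx1b still had a peak in Parental +OHT cells, with scores from 10.1 (Hoxb2) to 19.7 (Nr2e1 and Nr5a1).

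At Prdm12, a regulator of sensory neurons, the SUZ12 score was 81.1 over 10305 bp in Parental −OHT and 105.9 over 9978 bp in RING1B WT cells. It was 11.99 over 1972 bp in Parental +OHT cells, and RING1B I53S cells had no peak. In MTF2-proficient cells the scores were 343.6, 76.9, 328.5 and 40.04 in the order Parental −OHT, Parental +OHT, RING1B WT and RING1B I53S. Without active RING1B, Prdm12 thus kept a SUZ12 peak in all conditions with MTF2 but, without MTF2, only in Parental cells.

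Promoter occupancy was then counted in lists of developmental genes, with a SUZ12 peak within 2.5 kb of an annotated start. Among all protein-coding genes outside chromosome 11, the share with such a peak was 9.47% in Parental −OHT, 1.75% in Parental +OHT, 10.0% in RING1B WT and 0.434% in RING1B I53S cells. On chromosome 11 it was 26.6, 34.8, 35.8 and 12.3%. Of 188 genes outside chromosome 11 in the 20 developmental lists, 161 had SUZ12 in Parental −OHT cells, 22 in Parental +OHT cells, 160 in RING1B WT cells and 5 in RING1B I53S cells. The share was thus above that of all genes in every list, and was so already in Parental −OHT cells. Among all protein-coding genes outside chromosome 11 without an input peak, 226 promoters kept SUZ12 with OHT in Parental cells and 1685 lost it. From RING1B WT to RING1B I53S 39 kept it and 1972 lost it. Whether promoters of the developmental lists kept SUZ12 more often than other occupied promoters was not tested. Of the 27 listed genes on chromosome 11 the numbers were 26, 21, 26 and 8.

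The Hox clusters, which pattern the body axis, separated by chromosome. In Parental −OHT and RING1B WT cells SUZ12 was at 11 of 11 Hoxa, 7 of 9 Hoxc and 9 of 9 Hoxd promoters. No promoter of these 3 clusters had a peak in Parental +OHT or RING1B I53S cells. The Hoxb cluster, on chromosome 11, had SUZ12 at 10 of 10 promoters in both long lists, at 7 in Parental +OHT cells and at 4 in RING1B I53S cells. In Parental −OHT cells a peak of 59587 bp (score 319.2) overlapped the promoters from Hoxb3 to Hoxb9. With OHT it was replaced by pieces such as one of 2007 bp at Hoxb5 and Hoxb6 (score 20.3). With MTF2, at least 6 promoters of each cluster kept a peak in Parental +OHT and RING1B I53S cells.

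Among the lists outside chromosome 11, the Pax genes had the highest share of SUZ12 promoters in Parental +OHT cells, a difference between lists that was not tested. All 9 Pax promoters had SUZ12 in Parental −OHT cells, and 4 did with OHT: Pax6, a neural and eye regulator (14.6), Pax5 (11.4), Pax7 (10.6) and Pax2 (10.1). Of 15 Wnt promoters outside chromosome 11, 15 had SUZ12 without and 4 with OHT, namely Wnt16 (12.9), Wnt7a (12.5), Wnt2 (11.5) and Wnt11 (10.1). Wnt2, Wnt7a and Wnt16 are on chromosome 6. These scores lay near the lowest score in the lists of 10.0, and 4 promoters per list are few.

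Proneural bHLH factors had SUZ12 at 12 of 14 promoters without and at 3 with OHT, among them Atoh1 (13.0) and Neurog1 (10.6). Among forkhead factors 19 of 20 had it without and 2 with OHT, Foxb1 (17.7) and Foxd4 (16.5). LIM homeobox, Nkx, and Dlx and Msx genes had 2 promoters each in Parental +OHT cells. Irx, sine oculis homeobox, Zic and Gata factors, primitive endoderm genes and trophoblast regulators had none. In RING1B I53S cells the 5 promoters were those of Pax7, Nkx1-1, Foxb1, Wnt2 and the growth factor Fgf9.

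**Figure D5:**
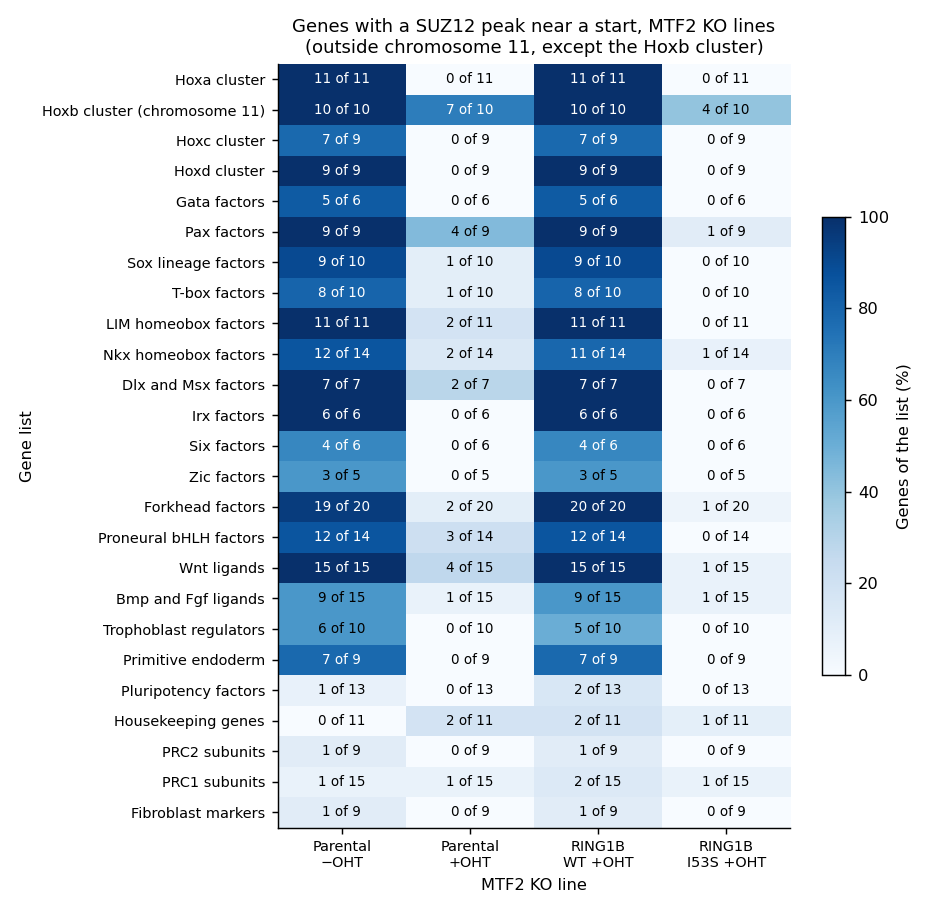
Number of genes of each list with a SUZ12 peak within 2.5 kb of a start in the 4 MTF2 KO lists, outside chromosome 11 except for the Hoxb cluster; colour is the percent of the list. The columns of Parental −OHT and RING1B WT are alike, and with OHT in Parental cells Hoxb (7 of 10) and Pax genes (4 of 9) hold most.

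Lists of other genes gave a background. Of 13 pluripotency genes SUZ12 was at 1 promoter in Parental −OHT and at 2 in RING1B WT cells, and at none in the short lists. Fibroblast markers outside chromosome 11 had 1, 0, 1 and 0 of 9. Among 11 housekeeping genes outside chromosome 11 there was none in Parental −OHT cells, but Actb (14.4) and Eef1a1 (12.3) had a peak in Parental +OHT cells and Actb (11.5) in RING1B I53S cells. These promoters, of cytoplasmic actin and a translation elongation factor, had no SUZ12 peak in any list with MTF2. Ppia, the housekeeping gene on chromosome 11, had a peak in Parental −OHT (11.9), Parental +OHT (11.7) and RING1B WT cells (19.2). In RING1B WT cells without MTF2, 2 housekeeping promoters on other chromosomes had a peak, so such peaks were not limited to the short lists. The peak lists cannot check the loss of MTF2 or the cell type, and RNA of the MTF2 KO lines was not analysed here.

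Part of the peaks in the short lists had no counterpart in the list they were compared with. This was Parental −OHT for Parental +OHT cells and RING1B WT for RING1B I53S cells, so a peak counted here can have one in the other long list. Outside chromosome 11, 294 of 590 peaks of Parental +OHT cells did not overlap a Parental −OHT peak. Only 19 of them (6.46%) lay at a RING1B target locus, against 82.8% of the 296 with a counterpart, and their median width was 549 bp. In RING1B I53S cells 166 of 263 peaks had no counterpart in RING1B WT cells, and 4 of these were at a target locus. On chromosome 11 the numbers without a counterpart were 823 of 1211 and 264 of 443.

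RNA-seq of the MTF2-proficient lines, with 2 samples per group and 8140106 to 12743460 counts each, was used to describe the genes behind these promoters. Genes were called at an edgeR adjusted p below 0.05 and a log2 change of 1.5 or more in size. With OHT, 2748 of 18154 tested genes rose in Parental cells (15.1%) and 333 fell (1.83%). In RING1B I53S cells 2323 rose (12.8%) and 188 fell (1.04%). The labels do not say that samples of a group came from separate cultures, so these tests measure the spread between samples only. None of these values describes RNA in cells without MTF2.

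Outside chromosome 11, most genes whose promoter kept SUZ12 in MTF2 KO Parental cells rose with OHT in MTF2-proficient cells, as did most of those that lost it. There, 129 of 173 tested genes with a kept promoter rose in Parental cells (74.6%, 67.6 to 80.5), against 936 of 1427 with a lost one (65.6%, 63.1 to 68.0) and 17.0% of all tested genes with these windows. Their median log2 fold changes were 3.27 and 2.38. On chromosome 11 the shares were lower, at 46.1% of 230 kept (39.8 to 52.5) and 42.7% of 150 lost ones (35.0 to 50.7). Of all tested genes 17.8% rose on chromosome 11 and 17.1% over all chromosomes. Over all chromosomes the order was the other way, with 235 of 403 kept (58.3%) and 1000 of 1577 lost (63.4%), and chromosome 11 held 230 of these 403 kept and 150 of these 1577 lost promoters. Outside chromosome 11, genes with SUZ12 only in the +OHT list rose in 9 of 98 cases, with a median log2 fold change of −0.05, and had a median of 4.47 CPM per kb before OHT against 0.0429 for kept promoters. For RING1B I53S outside chromosome 11, 12 of 27 genes with a kept promoter rose (44.4%, 27.6 to 62.7) and 1017 of 1667 with a lost one (61.0%, 58.6 to 63.3). Of all tested genes there, 14.7% rose in RING1B I53S cells. On chromosome 11 the genes that rose were 25 of 114 with a kept promoter (21.9%, 15.3 to 30.4). With a lost one they were 130 of 409 (31.8%, 27.5 to 36.4), and of all tested genes on chromosome 11 15.1% rose. The kept share on chromosome 11 was thus nearer to that of all genes than the lost share was, and its interval began just above 15.1%.

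Both kinds of promoter are represented by single genes. Bmi1 RNA was 1.89 and 3.96 CPM in the Parental −OHT samples and 7.77 and 6.87 CPM with OHT. It was 1.36 higher on the log2 scale (edgeR adjusted p = 0.0138), below the size needed for a call. Pax7 RNA was 0.658 and 0.371 CPM without and 2.22 and 5.89 CPM with OHT, and it rose by 2.89 (edgeR adjusted p = 0.00129). Otx1, whose promoter lost SUZ12 in both comparisons, had 0.740 and 0.618 CPM without and 25.9 and 27.9 CPM with OHT. It rose by 5.26 on the log2 scale in Parental cells (edgeR adjusted p = 1.9e-07) and by 3.64 in RING1B I53S cells (edgeR adjusted p = 3.2e-06).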

How the data were processed

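SUZ12 ChIP-seq peaks were compared between 4 MTF2 KO samples and, as reference, 4 MTF2-proficient ones. Per the study's methods and the labels, the authors aligned reads to mm10 with Bowtie 1.2.2 and called peaks per sample against an input of E14 ESCs with MACS2 2.1.1; no spike-in was used for SUZ12. The deposited score is −log10 of the peak p-value, and the lowest score in the SUZ12 lists was 10.0. ChIP read depth was not given in the lists used. RNA values are the raw counts deposited by the authors (STAR 2.7, featureCounts, GENCODE annotation), which were counted without strand, so overlapping antisense genes cannot be told apart. Tables of the authors' own expression comparisons (fold changes and p-values) and their normalized counts were not used.

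Overlaps, shares and intervals were computed in Python 3.11.15 with pandas 2.3.3 and scipy 1.17.1, and counts were tested with edgeR 4.0.16 (quasi-likelihood, TMM, filterByExpr, all 12 RNA samples in 6 groups) in R 4.3.3, both checked on simulated data. DESeq2 1.42.0 was an alternative. Promoters were windows of 2.5 kb to either side of starts in GENCODE M21. Genes were named by rank of score among the strongest promoters of the OHT lists and the strongest lost ones (10 each, protein-coding, 1 gene per peak), by membership of 25 gene lists (280 of 281 members matched), and Prdm12. The samples and gene lists were chosen with earlier results of these data known. Some genes that this rule names are not reported here.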

Additional observations from a re-analysis of the deposited data

How the results depend on the processing

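Of 122 values recomputed under alternatives, 59 stayed within their interval or within 1.5 times the reported count, and 63 moved. In every alternative for target loci and promoters, both lists with active RING1B had higher values than both without. The share of all 3941 target loci with SUZ12 (Parental −OHT, Parental +OHT, RING1B WT, RING1B I53S) was 62.4, 12.7, 65.7 and 2.66%. With scores of at least 20 it was 36.1, 1.42, 35.9 and 0.507%, with 50% of the locus covered 57.3, 6.95, 60.5 and 1.19%, and with SUZ12 peaks of MTF2-proficient Parental −OHT cells as loci 34.3, 7.61, 34.8 and 1.70%. With only as many top-scoring peaks as the shortest list it was 21.7, 6.45 and 20.7% in the first 3. These alternatives use fewer peaks or other loci; beyond that the cause was not tested.

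Leaving out chromosome 11, or 6 and 11, was chosen after seeing the data. The shares were then 65.9, 7.89, 68.6 and 1.24%, and 65.0, 6.77, 68.1 and 1.12%. Peaks kept in Parental MTF2 KO cells were 15.1%, and 3.55% at scores of at least 20, 7.22% with 50% covered, 16.7% with peaks within 1 kb merged, 21.3% with equal numbers of peaks, 9.11% without chromosome 11 and 7.95% without 6 and 11. From RING1B WT to I53S they were 5.87%, and 2.09% (score), 3.67% (50% covered), 9.35% (equal numbers), 2.99% and 2.71%. From each MTF2-proficient list to the MTF2 KO list of the same condition the shares were 34.3, 9.88, 44.2 and 3.14%. They were 19.8, 1.40, 27.7 and 0.548% with scores of at least 20, 26.8, 5.51, 36.9 and 1.78% with 50% covered, 59.0, 18.7, 58.8 and 6.23% with equal numbers, 31.7, 5.37, 41.3 and 1.63% without chromosome 11, and 31.1, 4.43, 40.6 and 1.57% without 6 and 11. Protein-coding promoters with SUZ12 numbered 2357, 926, 2621 and 289, and 1038, 82, 1070 and 37 at scores of at least 20. In Parental +OHT and RING1B I53S cells they numbered 356 and 88 without chromosome 11, and 262 and 64 without 6 and 11. Leaving out peaks that overlap input peaks moved no value, nor did a promoter window of 1 kb.

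In the RNA fits, leaving out 1 sample in turn gave 2146 to 2468 higher and 268 to 333 lower genes in Parental cells, and 1564 to 2239 higher and 133 to 333 lower genes in RING1B I53S cells. The highest of the last came without RING1B I53S +OHT replicate 1 (333, against 188 with it), which leaves that group 1 sample assumed to vary like the other groups. With the replicate number as a block (replicate block), 2835 genes were higher and 341 lower in Parental cells and 2393 and 213 in RING1B I53S cells. Deviations of same-numbered samples correlated at 0.101 (Parental) and 0.198 (I53S), from −0.0033 to 0.301 over 15 pairs of groups, so the numbers were not taken to pair the samples. No other setting moved an RNA count by over 1.5 times.

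With 1 library per condition and unknown ChIP read depth, no difference between these lists can be separated from a difference between clones or libraries.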
